A study of Mus musculus with 15 samples.

Results

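The genes described here encode beta and gamma subunits of the GABA-A receptor and both subunits of the GABA-B receptor. They were chosen by symbol alone, as Gabrb1, Gabrb2, Gabrg1, Gabrg3, Gabbr1 and Gabbr2, which are 6 of the 26628 genes in the deposited table. RNA was sequenced from the whole cerebellum (Ce) and striatum (St) of male Hsd:ICR mice, labelled as 6 weeks old. The mice came from a line bred for high voluntary wheel running (Hi) or from a control line (Co). The groups were CeCo (n = 4), CeHi (n = 4), StCo (n = 4) and StHi (n = 3), because the authors removed 1 StHi sample, which was not analysed here. All mice could run on a wheel in the home cage until they were sampled on day 7, so that a difference between lines can reflect descent, the running itself or both, which cannot be told apart. Each line was a single line, and a difference between them includes whatever else differs between these lines.

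GABA is the main inhibitory transmitter of the adult brain. GABA-A receptors are chloride channels built of alpha, beta and, usually, gamma or delta subunits, in which beta subunits form the GABA site together with alpha subunits, and gamma subunits bear on benzodiazepine sensitivity and on anchoring at the synapse. The GABA-B receptor is a G protein-coupled receptor that works as a heterodimer, in which the product of Gabbr1 binds the ligand and that of Gabbr2 activates the G protein and brings its partner to the cell surface. Projection neurons of both regions, the Purkinje cells of the Ce and the medium spiny neurons of the St, release GABA.

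Many GABA-A subunit genes lie in clusters with other subunit genes. Positions are those of GRCm38 in the GENCODE M21 annotation. On chromosome 5, Gabrg1 (70751047 to 70842617, minus strand) is followed by Gabra2, Gabra4 and Gabrb1 (71658113 to 72149037, plus strand). On chromosome 11, Gabrb2 (42419757 to 42629028, plus strand) follows Gabra6. On chromosome 7, Gabrg3 (56716465 to 57387188, minus strand) lies beside Gabra5. The GABA-B genes are not in these clusters. Gabbr1 is on chromosome 17 (37045966 to 37075067, plus strand) and Gabbr2 on chromosome 4 (46662305 to 46991873, minus strand). All are protein-coding genes. Exons of Gabrb1 and Gabra4 share 46 bases on opposite strands, and reads from these bases cannot be assigned if strand was not used in counting, which the sources used here do not state. No 50-base window of the other members occurs in another gene, except 0.0252% of those of Gabbr1.

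The start regions of 1 member of each cluster are printed here as a description. Each is 300 bases of RefSeq on GRCm38.p6, read 5′ to 3′ on the strand of the gene. Capitals mark a TATA box (TATAAA), a GC box (GGGCGG) or the short form of the cAMP response element (TGACG) on either strand.
Gabrb2, chr11:42420190-42420489, plus strand: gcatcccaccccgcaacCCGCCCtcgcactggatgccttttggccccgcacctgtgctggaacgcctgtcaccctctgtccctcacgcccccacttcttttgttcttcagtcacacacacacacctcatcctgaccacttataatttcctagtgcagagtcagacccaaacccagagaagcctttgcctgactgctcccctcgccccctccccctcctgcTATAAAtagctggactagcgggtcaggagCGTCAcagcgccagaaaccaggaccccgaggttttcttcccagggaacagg
Gabrg1, chr5:70842568-70842867, minus strand: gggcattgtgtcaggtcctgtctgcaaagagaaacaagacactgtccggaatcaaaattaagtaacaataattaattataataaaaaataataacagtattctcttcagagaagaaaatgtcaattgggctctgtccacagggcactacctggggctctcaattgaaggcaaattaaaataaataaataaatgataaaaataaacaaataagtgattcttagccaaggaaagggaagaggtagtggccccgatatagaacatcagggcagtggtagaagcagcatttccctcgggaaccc
Gabrg3, chr7:57387166-57387465, minus strand: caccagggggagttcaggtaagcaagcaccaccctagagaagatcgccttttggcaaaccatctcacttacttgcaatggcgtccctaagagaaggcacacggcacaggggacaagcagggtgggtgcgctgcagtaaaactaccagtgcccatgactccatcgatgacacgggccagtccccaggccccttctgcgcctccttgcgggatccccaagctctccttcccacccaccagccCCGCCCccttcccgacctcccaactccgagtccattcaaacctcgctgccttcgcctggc
Gabrb2 has 3 start regions in RefSeq, of which the most upstream is shown. It held 1 match to each of the 3 motifs, the Gabrg3 window held 1 GC box and the Gabrg1 window held none, and the other 2 windows of Gabrb2 held none. An E-box (CACGTG), found in 7.15% of start regions, was in none of the 3 printed windows. Of 32851 mouse start regions of the same length, 13.6% hold TATAAA, 20.8% TGACG and 35.7% GGGCGG, and TGACG also occurs inside the full cAMP response element TGACGTCA, which 1.79% hold. The Gabrg1 window was 38.3% G or C with 3 CpG dinucleotides, and 7.45% of start regions had a lower G or C content. The printed windows of Gabrb2 (59.0%) and Gabrg3 (61.0%) lay above the median of 52.7%. The other 2 windows of Gabrb2 were 54.7% and 41.0% G or C. The Gabbr2 window was 80.3% G or C with 46 CpG, above 99.1% of all start regions. These are descriptions of sequence and no test of regulation was made.

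The values are normalized counts, which are fragment counts divided by 1 factor per sample. Samples held 32909386 to 47485535 fragments, and 1 fragment was worth 0.841 to 1.30 normalized counts. The first principal component (88.7% of the variance) parted the regions and the second (3.85%) parted the lines. Markers matched the labelled regions. The summed CPM (normalized counts relative to the sample total) of 8 medium spiny neuron markers was 4018 to 5612 in the St and 208 to 295 in the Ce, that of 6 granule cell markers was 5299 to 6527 in the Ce and 66.8 to 101 in the St, and no marker was at 0 throughout a group. In CeHi replicate 3 the median medium spiny neuron marker reached 2.12% of its mean in the St, whereas it reached 0.601% to 0.779% in the remaining 7 Ce samples. Several results that rest on this sample are given with and without it.

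Levels of different genes were compared per kilobase of annotated exon. In the Ce, Gabrb2 had the highest mean, at 4084 ± 452 (SD) normalized counts per kilobase in CeCo and 4159 ± 279 in CeHi, followed by Gabbr1 at 3494 ± 191 and 3778 ± 98.6. In the St this order was inverted, with Gabbr1 at 4201 ± 173 in StCo and 4240 ± 116 in StHi, and Gabrb2 at 2525 ± 241 and 2438 ± 119. The remaining order was shared by all 4 groups, namely Gabbr2 (831 to 1271 over the group means), Gabrg1 (133 to 268), Gabrb1 (49.9 to 68.1) and Gabrg3 (1.27 to 32.7). Neighbours in the order did not overlap between samples in any group, except Gabrb2 and Gabbr1 in CeHi. The ranks were the same when the longest transcript or the coding length replaced the exon length.

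**Figure D1:**
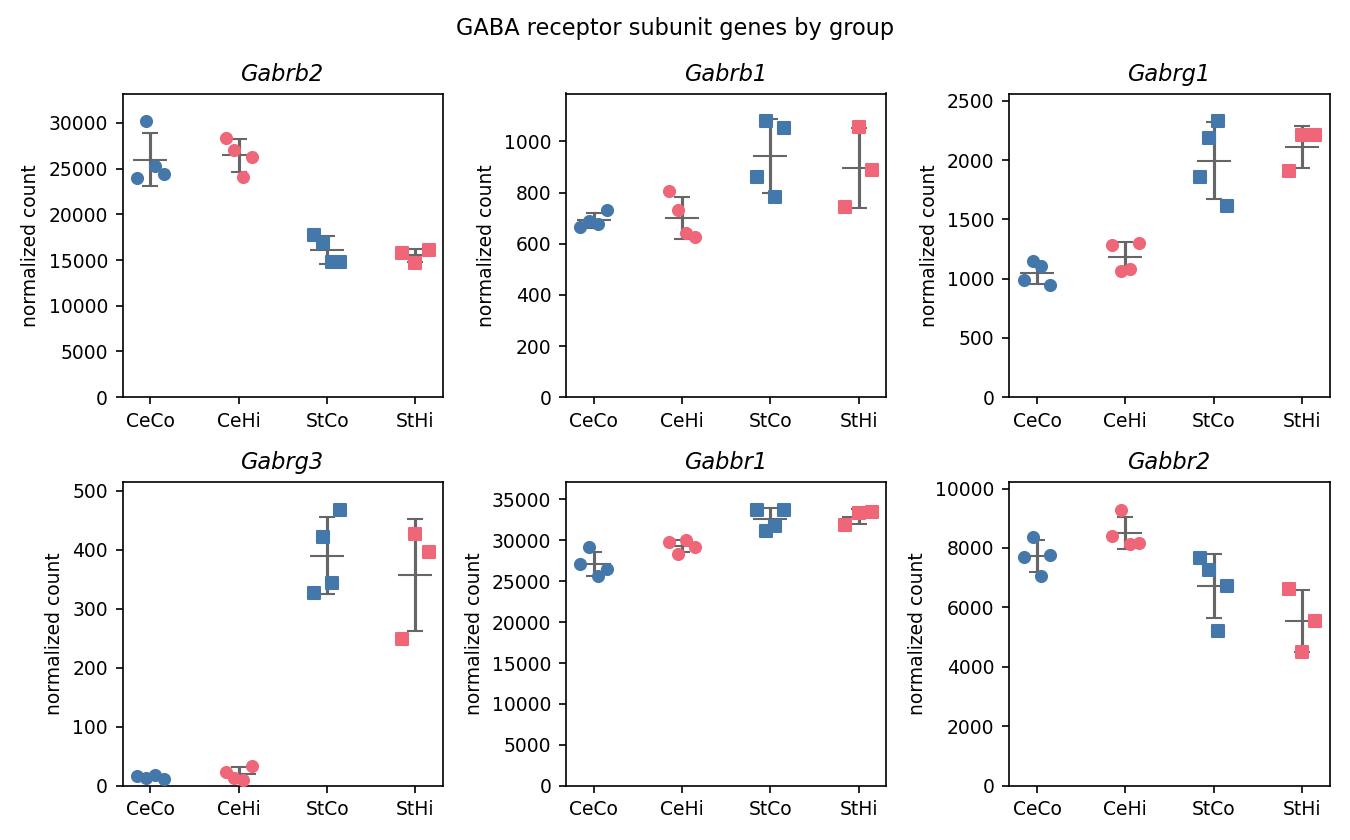
Normalized count (vertical axis, from 0) of each member gene in the samples of CeCo, CeHi, StCo and StHi, with the mean and SD of each group as horizontal and vertical lines. Gabrg3 lies at 10.2 to 33.8 in the Ce and at 249 to 468 in the St, Gabrb2 is higher in all Ce samples than in any St sample, and the lines overlap within each region for every gene.

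The regional pattern of the members was similar in both lines. Gabrb2 was lower in the St, Gabrb1, Gabrg1, Gabrg3 and Gabbr1 were higher there, and Gabbr2 was lower in the St of the Hi line. For the region contrast in the control line 5 of the 6 members passed at 0.05 after FDR adjustment, 4 higher in the St and 1 higher in the Ce, against 74.7% of the 15213 genes tested (36.9% higher in the St and 37.8% higher in the Ce). In the Hi line all 6 passed, 4 higher in the St and 2 higher in the Ce, against 70.5% of genes (35.1% and 35.4%). A regional difference was thus common among all genes, and the counts of members lie near this background. Gabrg3 reached the filter of CPM 1 only through its 7 St samples, and could enter these counts only as a gene that is higher there. Without it, 4 of 5 members passed in the control line (3 higher in the St and 1 in the Ce) and 5 of 5 in the Hi line (3 and 2). The other 5 members passed the filter in all 15 samples. The median St minus Ce difference over all genes was -0.01 on the log2 scale in both lines. Because whole tissue was sequenced, fewer cells of a type and less RNA per cell cannot be told apart.

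Gabrb2 encodes the beta2 subunit, a widespread beta subunit of the adult brain. Its normalized counts in replicates 0 to 3 were 23983, 30206, 25311 and 24407 in CeCo, and 28342, 27044, 24103 and 26319 in CeHi. In the St they were 17781, 16921, 14772 and 14754 in StCo, and 15744, 14657 and 16112 in StHi. Every Ce sample lay above every St sample, and the lines overlapped in both regions. The log2 (fold change) of St against Ce was -0.69 in the control line (SE 0.08, FDR-adjusted P-value 4.3e-07) and -0.76 in the Hi line (SE 0.08, 3.7e-07), or 1.61-fold and 1.70-fold lower in the St.

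Gabrb1 encodes the beta1 subunit and was the lower of these beta genes in both regions. Counts were 666, 690.05, 675 and 732 in CeCo, and 805, 729.99, 641 and 626 in CeHi. StCo samples had 860.3, 1079, 781 and 1051, and StHi samples 743, 1057 and 888. The control line groups did not overlap between regions, whereas StHi replicate 0 lay below CeHi replicate 0. The log2 difference was 0.44 in the control line (SE 0.12, FDR-adjusted P-value 0.0026, 1.36-fold) and 0.35 in the Hi line (SE 0.13, 0.019, 1.28-fold). In the Hi line it rested on single samples, since it was 0.31 without CeHi replicate 2 (FDR-adjusted P-value 0.055), 0.30 without CeHi replicate 3 (0.055) and 0.23 without StHi replicate 1 (0.135).

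Gabrg1 encodes the gamma1 subunit, which is known from glia, among them Bergmann glia, and from some neurons. Counts were 988, 1150.1, 1107 and 947 in CeCo, and 1285, 1065, 1084 and 1299.9 in CeHi. In the St they were 1855, 2188, 2330.1 and 1612 in StCo, and 1905, 2216 and 2213 in StHi. The lowest St sample exceeded the highest Ce sample, and both regions showed overlap of the lines. The log2 difference between regions was 0.92 in the control line (SE 0.11, FDR-adjusted P-value 6.6e-07, 1.90-fold) and 0.84 in the Hi line (SE 0.12, 5.8e-06, 1.79-fold). The summed CPM of 7 astrocyte and Bergmann glia markers ranged from 3526 to 4005 over Ce samples and from 4009 to 4847 over St samples. Slc1a2, a glutamate transporter gene, alone was higher in the St (939 to 1126 in the Ce and 2945 to 3682 in the St), whereas the means of the other 6 were lower there in both lines, and their sum was 2524 to 2998 in the Ce and 1035 to 1222 in the St. The part of glial content in the Gabrg1 difference was not tested.

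Gabrg3, which encodes the gamma3 subunit, had the largest regional difference of the members. Its counts were 16.8, 13.4, 18.8 and 11.6 in CeCo, and 23.5, 13.7, 10.2 and 33.8 in CeHi, which correspond to 11 to 32 fragments per Ce sample. Those of the St were 327, 421, 344 and 468 in StCo, and 249, 427 and 395 in StHi. The St samples lay far above those of the Ce, and the highest Ce value was that of CeHi replicate 3. On the log2 scale of the count plus 1, the difference was 4.61 in the control line (SE 0.29, 24.5-fold) and 4.18 in the Hi line (SE 0.32, 18.1-fold). These values are given as a description, since the gene was tested only because of its level in the St. Without CeHi replicate 3 the Hi line value was 4.46.

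Gabbr1 encodes the subunit of the GABA-B receptor that binds GABA. Counts were 27115, 29171, 25677 and 26546 in CeCo, and 29787, 28327, 30052 and 29175 in CeHi. In the St they were 33749.6, 31141, 31815 and 33762 in StCo, and 31883, 33368 and 33499 in StHi. Each St group lay above the Ce group of its line, with a small gap. The log2 difference was 0.27 in the control line (SE 0.05, FDR-adjusted P-value 9.3e-05, 1.21-fold) and 0.17 in the Hi line (SE 0.05, 0.0088, 1.13-fold), and neither passed when samples were scaled by quantiles (0.10, adjusted P-value 0.081, and 0.0025, 0.969). Quantile scaling also moved the median of all genes, to -0.10 in both lines.

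Gabbr2 encodes the subunit that couples the receptor to G proteins. Counts were 7696, 8375, 7040 and 7774 in CeCo, and 8414, 9290.5, 8142 and 8157 in CeHi. In the St they were 7663, 7265, 5205 and 6705 in StCo, and 6604, 4512 and 5545 in StHi. The regions overlapped in the control line and not in the Hi line. The log2 difference was -0.21 in the control line (SE 0.12, 95% interval -0.46 to 0.04, FDR-adjusted P-value 0.116) and -0.62 in the Hi line (SE 0.13, 0.00037, 1.54-fold lower in the St). The test of the difference between these values, the line-by-region interaction, did not pass, as described with the line contrasts. With quantile scaling the control line difference passed as well (-0.32, adjusted P-value 0.011).

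**Figure D2:**
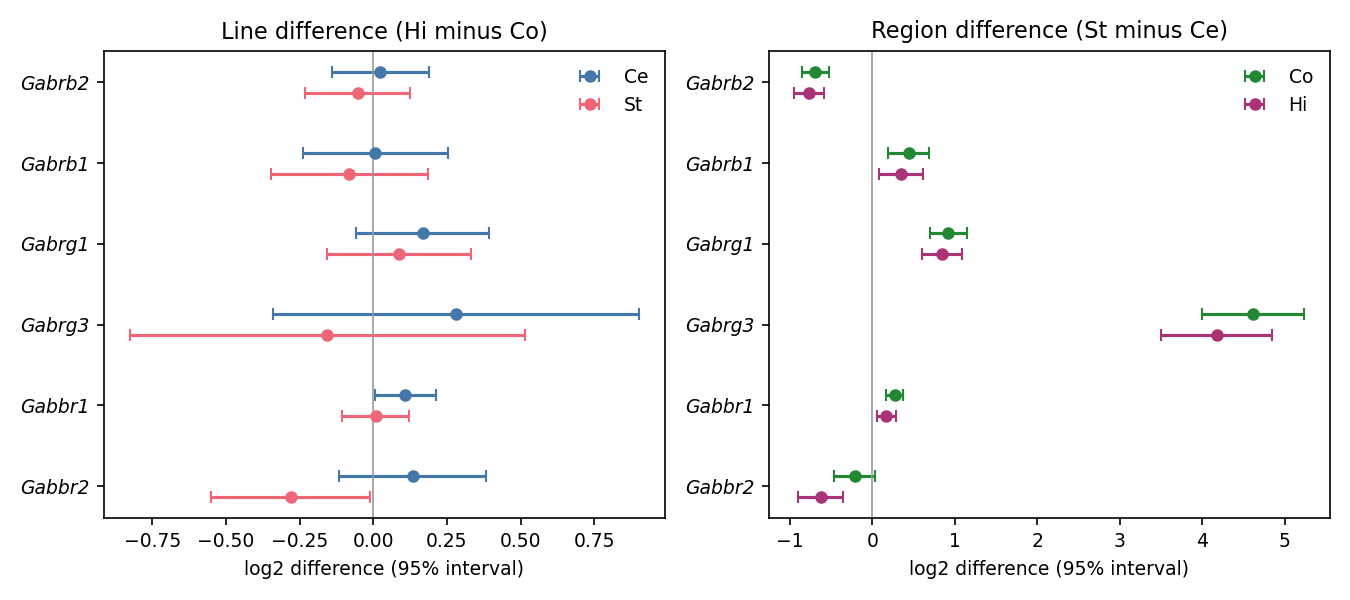
Log2 difference with its 95% interval from the limma fit for each member gene, for Hi minus Co in each region (left) and St minus Ce in each line (right). The regional differences run from -0.76 for Gabrb2 to 4.61 for Gabrg3, whereas the line differences run from -0.28 for Gabbr2 in the St to 0.28 for Gabrg3 in the Ce.

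Within a sample, ratios of subunits do not depend on the scaling of the sample. Per kilobase of exon, Gabrb2 exceeded Gabrb1 by 81.5-fold in CeCo and 82.5-fold in CeHi, and by 37.3-fold in StCo and 38.0-fold in StHi. Gabrg1 exceeded Gabrg3 by 106.6-fold and 97.9-fold in the Ce of the control and Hi lines, and by 7.76-fold and 9.18-fold in the St. Gabbr1 exceeded Gabbr2 by 3.03-fold and 2.98-fold in the Ce, and by 4.23-fold and 5.16-fold in the St. These folds are back-transformed means of log2 ratios over samples. Their size depends on the gene length used. With the longest transcript or the coding length, which were tried for the ratios after the data were seen, Gabrb2 over Gabrb1 was 34.7-fold to 131-fold in the Ce and 15.9-fold to 60.2-fold in the St. For Gabrg1 over Gabrg3 these ranges were 64.8-fold to 144-fold and 5.14-fold to 12.4-fold, and for Gabbr1 over Gabbr2 3.38-fold to 3.85-fold and 4.81-fold to 6.57-fold. Differences of a log2 ratio between groups do not depend on length.

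All 3 ratios parted the regions without overlap in both lines. No share over other gene pairs was computed, and 74.7% of all genes passed for region in the control line and 70.5% in the Hi line. The St minus Ce differences of the log2 ratios were 1.13 (Gabrb1 over Gabrb2) and 0.48 (Gabbr1 over Gabbr2) in the control line. Each had a two-sided exact permutation P-value of 0.0286, the smallest that 4 against 4 samples allow. In the Hi line they were 1.12 and 0.80, each with an exact permutation P-value of 0.0571, the smallest for 4 against 3 samples. Adjusted over the 12 tests of ratios made, these P-values were 0.114. Gabrg3 over Gabrg1 differed by 3.78 in the control line and by 3.41 in the Hi line (3.66 without CeHi replicate 3). These 2 values are given as a description, since Gabrg3 passed the filter only through the St. Between lines the ratios overlapped in both regions, and the line difference furthest from 0 was that of Gabbr1 over Gabbr2 in the St (0.29, exact permutation P-value 0.286).

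**Figure D3:**
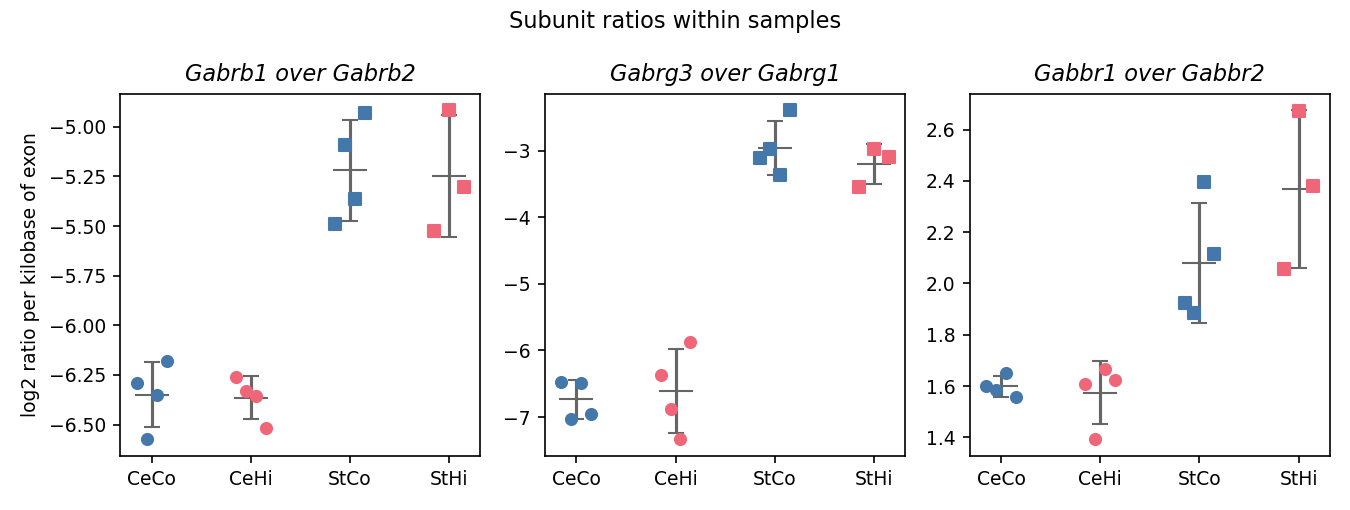
Log2 ratio of normalized counts per kilobase of exon within each sample for 3 subunit pairs, with group mean and SD as lines. For each pair the St samples lie above the Ce samples without overlap, with the Gabrg3 over Gabrg1 ratio rising from means of -6.74 and -6.61 in the Ce to -2.96 and -3.20 in the St.

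The neighbours of the members on the chromosome were considered next, together with the members themselves. On chromosome 5, where Gabrg1 and Gabrb1 were higher in the St, the alpha subunit genes between them were also higher there, Gabra2 by 1.21 and 0.81 and Gabra4 by 2.27 and 2.2 on the log2 scale in the control and Hi lines. On chromosome 7, Gabra5, beside Gabrg3, was higher in the St by 6.43 and 5.39 (5.95 in the Hi line without CeHi replicate 3). On chromosome 11, Gabra6, a marker of granule cells, was lower in the St as Gabrb2 was, at -11.50 in both lines. The FDR-adjusted P-values for Gabra2 and Gabra4 were at most 3.7e-06. The values of Gabra5 and Gabra6 are a description with no test, because each passed the filter through the region where it is high (Gabra5 reached CPM 1 in 2 of 8 Ce and all 7 St samples, Gabra6 in all 8 Ce and 0 St samples). The sizes within a cluster were unequal, as Gabra4 and Gabrb1, which share exon bases, differed by 2.27 and 0.44 in the control line. The number of clusters is too small for a test of shared direction.

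**Figure D4:**
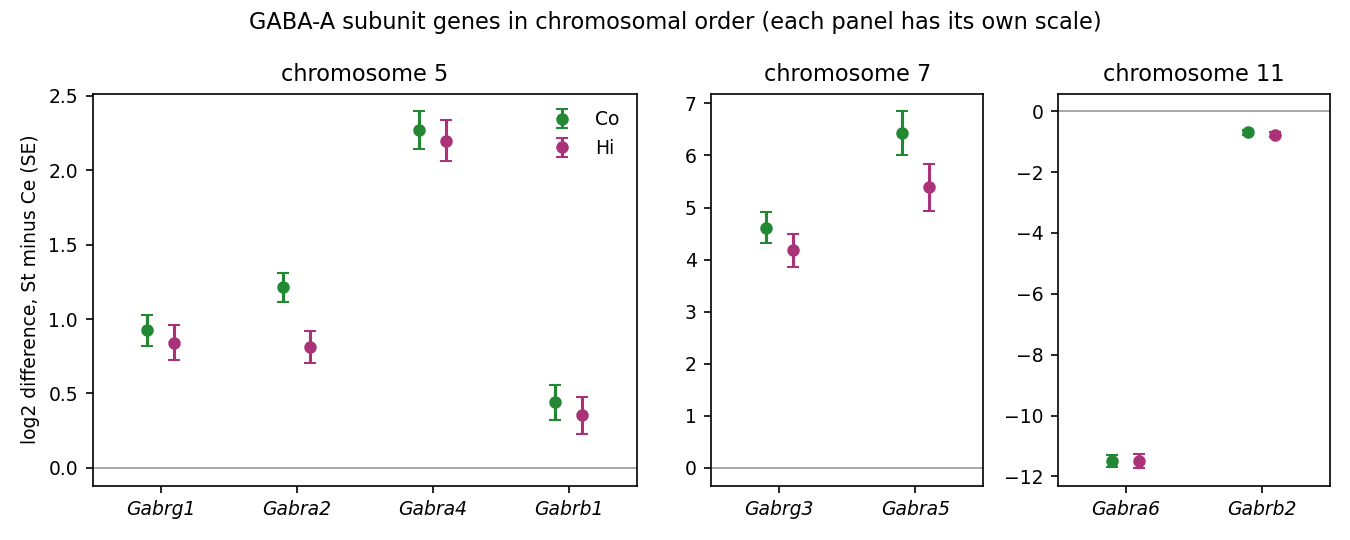
Log2 difference of St minus Ce with its standard error in the control (Co) and Hi lines for the subunit genes described on 3 chromosomes, in chromosomal order. Each panel has its own vertical scale. The genes of chromosomes 5 and 7 lie above 0 and those of chromosome 11 lie below 0 in both lines. Gabrg3, Gabra5 and Gabra6 passed the filter only through the region where they are high, so that their direction was fixed.

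Between the lines, 0 of the 6 members passed at 0.05 after FDR adjustment with limma in either region. Of all genes tested, 5.94% passed for the Ce and 2.66% for the St. At an unadjusted limma P-value under 0.05 there was 1 member in each region, Gabbr1 in the Ce and Gabbr2 in the St. Of the 15213 genes tested, 2990 reached this level in the Ce and 2141 in the St. For the mean of both line contrasts the count was 0 at either level (8.48% of genes passed after adjustment, and 3391 of the 15213 genes without it). The edgeR and DESeq2 tests on recovered fragments also called 0 members in all line contrasts after adjustment. Without adjustment edgeR called 0 members for the Ce and 1 for the St, and DESeq2 called 1 for each. The count over all genes without adjustment is given here for limma only.

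The 95% intervals of the line differences are per gene, without adjustment over the genes tested, and are not limits of detection. For Gabrb2 the Hi minus Co difference was 0.02 in the Ce (interval -0.14 to 0.19) and -0.05 in the St (-0.23 to 0.13). For Gabrb1 it was 0.01 (-0.24 to 0.25) and -0.08 (-0.35 to 0.19). All bounds for the beta subunit genes were thus within 0.35 log2 units of 0.

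The gamma subunit genes were measured less tightly. Gabrg1 differed by 0.17 in the Ce (interval -0.06 to 0.39) and 0.09 in the St (-0.16 to 0.33). Gabrg3 differed by 0.28 in the Ce (-0.34 to 0.90) and -0.16 in the St (-0.83 to 0.52), and its Ce value was 0.00 without CeHi replicate 3. The coefficient of variation of Gabrg3 in CeHi was 52.3%, higher than that of 97.5% of the genes tested, at 11 to 32 fragments.

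The mean of Gabbr1 was 27127 ± 1485 (SD) over the 4 CeCo samples and 29335 ± 766 over the 4 CeHi samples. The CeHi samples lay above the CeCo samples except that CeCo replicate 1 (29171) exceeded CeHi replicate 1 (28327). The log2 difference was 0.11 (SE 0.05, limma P-value 0.0425, FDR-adjusted P-value 0.234), and over all alternatives the adjusted P-value was 0.129 to 0.408. In the St the means were 32617 ± 1344 and 32917 ± 898 (n = 3), with a log2 difference of 0.01 (interval -0.10 to 0.12).

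For Gabbr2 the line differences had opposite signs in the regions, and neither passed the test. Means were 7721 ± 546 (SD) over the 4 CeCo samples and 8501 ± 541 over the 4 CeHi samples, which differed by 0.13 on the log2 scale (interval -0.12 to 0.38). In the St they were 6709 ± 1077 (n = 4) and 5554 ± 1046 (n = 3), a log2 difference of -0.28 (SE 0.13, limma P-value 0.0419, FDR-adjusted P-value 0.328). The groups overlapped in both regions. The St value rested on StHi replicate 1, the lowest of all samples, without which it was -0.14 (FDR-adjusted P-value 0.781). Over all alternatives the St value was -0.41 to -0.14, with adjusted P-values of 0.057 to 0.781.

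For the line-by-region interaction 0 members passed in limma, edgeR or DESeq2, against 0.532% of the genes tested with limma. Without adjustment, 1454 of the 15213 genes tested had a limma P-value under 0.05. Among the members 1, Gabbr2, had an unadjusted P-value under 0.05, in each of the 3 tools, which used the same 15 samples. Its interaction log2 value was -0.41 (SE 0.17, limma P-value 0.0292, FDR-adjusted P-value 0.430), larger in size than that of 90.8% of genes, and it was -0.27 without StHi replicate 1. Over all alternatives this value was -0.55 to -0.27, with adjusted P-values of 0.104 to 0.777. Gabrg3 had an interaction of -0.44 (SE 0.43, FDR-adjusted P-value 0.84), which ranged from -0.70 to -0.15 when 1 sample was left out. The other members lay between -0.10 and -0.08.

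Markers of cortical excitatory neurons, which border the striatal dissection, varied with Gabbr2 among the St samples. The summed CPM of 4 such markers (Neurod6, Tbr1, Slc17a7 and Neurod2) was 991, 1160.1, 797 and 953 in StCo replicates 0 to 3, and 885, 421 and 650.1 in StHi replicates 0 to 2. This list was added to the planned marker lists. StHi replicate 1 was the lowest sample for the marker sum and for Gabbr2, and StCo replicate 2 was the lowest StCo sample for both. The orders did not match throughout, as StCo replicate 1 had the highest sum but not the highest Gabbr2 count. None of the 4 markers was at 0 in a group. Oligodendrocyte markers (5 genes) also differed, with sums of 4336 to 6181 in StCo and 6630 to 7529 in StHi. The part of tissue composition in the Gabbr2 values was not tested.

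**Figure D5:**
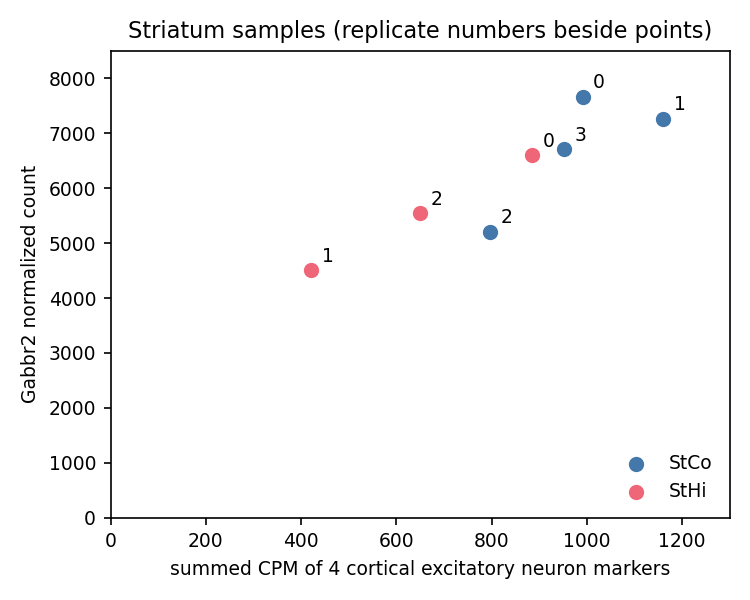
Gabbr2 normalized count (vertical axis) against the summed CPM of 4 cortical excitatory neuron markers (horizontal axis) in the 7 St samples, with replicate numbers beside the points. StHi replicate 1 has the lowest value on both axes (421 and 4512), and the StCo samples with the highest sums have the highest Gabbr2 counts.

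Genes that act with these receptors were described from 4 lists. Of 15 further GABA-A subunit genes, 12 passed the filter. Of these, 5 passed through 1 region only, with fewer than 3 samples at CPM 1 in the other, namely Gabra6 and Gabrr2 through the Ce and Gabra5, Gabre and Gabrq through the St, and these had to differ. Each of the remaining 7 differed between regions in the control line, 4 higher in the St and 3 in the Ce, with a median difference of 1.19 on the log2 scale, against 74.7% of all genes tested (36.9% higher in the St and 37.8% in the Ce). Gabra3, encoding the alpha3 subunit, was higher in the St by 3.06 (SE 0.12, FDR-adjusted P-value 7.6e-13). Between lines 1 of the 12 passed in the Ce and 0 in the St, against 5.94% and 2.66% of all genes. This was Gabra3, with a mean of 700.01 ± 48.1 in CeCo and 983 ± 172 in CeHi, a log2 difference of 0.47 (SE 0.12, FDR-adjusted P-value 0.024). It was 0.36 without CeHi replicate 3 and no longer passed (0.055), and it also missed without CeCo replicate 0 (0.053), CeCo replicate 3 (0.077) or CeHi replicate 0 (0.051).

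Of 22 partners and effectors of the GABA-B receptor, all were tested. Kctd16 and Kcnj5 passed the filter through the St only. Of the other 20, 8 were higher in the St and 9 in the Ce in the control line, with a median of -0.01. Of all genes 36.9% and 37.8% were so. Adcy5, the main adenylyl cyclase of medium spiny neurons, had a log2 difference of 4.31 (SE 0.08, FDR-adjusted P-value 1.0e-16), and Ajap1, a membrane protein that binds the GABBR1 subunit, one of 1.77 (SE 0.06, 3.3e-14). Between lines 1 of the 22 genes passed in the Ce and 0 in the St, against 5.94% and 2.66% of all genes. This was again Ajap1, which rose from 806 ± 33.1 in CeCo to 953 ± 69.4 in CeHi (log2 difference 0.23, SE 0.06, FDR-adjusted P-value 0.022). It missed the threshold without CeHi replicate 3 (0.19, 0.062), CeCo replicate 0 (0.064) or CeCo replicate 3 (0.065).

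Of 25 genes of the inhibitory synapse scaffold and receptor trafficking, 17 were higher in the St and 2 in the Ce in the control line, with a median of 0.64, against 36.9% and 37.8% of all genes and a median of -0.01. No test of the list against other genes was made. Slitrk3, an adhesion protein of inhibitory synapses, was higher in the St by 2.36 (SE 0.07, FDR-adjusted P-value 2.3e-14), and Plcl2, of a family that binds GABA-A receptors, by 1.06 (SE 0.05, 7.8e-12). In the Ce, 1 of the 25 genes was higher and 1 lower in the Hi line, against 5.94% of all genes that passed in either direction. Slitrk3 rose from 545 ± 29.9 to 702 ± 29.0 (log2 difference 0.36, SE 0.07, FDR-adjusted P-value 0.0071) and passed in all 28 alternative settings. Mdga1, which binds neuroligin-2, fell from 929 ± 132 to 699 ± 39.8 (-0.41, SE 0.10, 0.024). The Mdga1 value was -0.32 without CeCo replicate 1 (0.096), and it also missed without CeCo replicate 3 (0.081) or CeHi replicate 0 (0.054), 1 (0.074) or 2 (0.054).

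Of 9 genes of GABA synthesis, packaging, uptake and breakdown, 7 were higher in the St and 2 in the Ce in both lines, with a median of 0.69 in the control line, where 36.9% and 37.8% of all genes were so. Gad2, a GABA-synthesizing enzyme, differed by 1.77 (SE 0.08, FDR-adjusted P-value 4.1e-12) and Slc32a1, the vesicular GABA transporter, by 0.97 (SE 0.08, 3.5e-09). No gene passed in the line contrast of a single region, against 5.94% of all genes in the Ce and 2.66% in the St. For the mean of both line contrasts, 2 of the 9 genes passed, against 8.48% of all genes. Slc32a1 (0.19, SE 0.06, FDR-adjusted P-value 0.040) and Abat, the GABA transaminase (0.15, SE 0.04, 0.038), were higher in Hi. These calls were near the threshold, as Slc32a1 missed it in 13 and Abat in 10 of 27 alternative settings, with adjusted P-values up to 0.104 and 0.0998. No gene of the 4 lists passed for the interaction, against 0.532% of all genes.

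The tested genes with the most similar pattern over the 15 samples were identified for each member by Pearson's r of log2 values, as a description. The samples share 2 regions of large contrast, so that many genes correlate. For Gabrb2 they included Zfp260 (r = 0.991) and Ccne2 (0.985), and 747 genes exceeded 0.95. For Gabrg3 they were Dlgap2 (0.995), Cpne7 (0.994) and Lrrc7 (0.994), with 2117 genes above 0.95, and for Gabrg1 Vat1 (0.983), LOC100862149 (0.980) and Mapk3 (0.980), with 344 genes.

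Fewer genes resembled the members with small regional differences. For Gabbr2 they were Ipcef1 (r = 0.968), St3gal5 (0.959) and Dlgap1 (0.926). For Gabbr1 they were Mbd2 (0.95), Pcp4 (0.944) and Gm19531 (0.944), and for Gabrb1 Xkr4 (0.933), Il1rapl1 (0.921) and Erg (0.916). After group means were removed, r between pairs of members ran from -0.486 (Gabrg1 and Gabbr2) to 0.589 (Gabrb2 and Gabbr2) over 15 samples, and that of Gabrg1 and Gabrg3 was 0.427. For Gabbr1 and Gabbr2, whose products form the heterodimer, it was 0.06.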

How the data were processed

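RNA-seq values of 15 samples of mouse cerebellum and striatum were analysed, grouped by their labels. Per the methods and the processing notes of the submitters, the authors aligned paired-end reads with TopHat2 to GRCm38 (mm10) and normalized gene counts with Cuffnorm 2.2.1. The annotation and the use of strand are not given in the sources used here. The deposited signal is the fragment count of a gene divided by 1 factor per sample, and gene length does not enter it, in spite of FPKM in the name of the table. In a check of the values, 99.6% to 99.8% of low values (under 20 fragments) were whole multiples of 1 fragment within 0.05 of a step. Columns not mapped to a sample numbered 0.

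The test covered the 15213 genes that reached a CPM of 1 in at least 3 samples. Scaling used TMM factors (edgeR 4.0.16, 0.933 to 1.05). Log2 (value + 1) was fitted as 4 group means with limma 3.58.1 in R 4.3.3 (trended, robust empirical Bayes), with Benjamini-Hochberg adjustment over all genes tested. Fold changes are on this scale, which understates those of low genes. Ratios were compared with exact permutation tests (scipy 1.17.1). The fits were tested on simulated data with line changes larger than those of the members. That run does not show how small a difference could be detected here. Samples of a group were taken as separate mice, because the labels describe extraction mouse by mouse and no pooling.

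Across genes, the residuals of CeCo and StCo correlated between samples of equal label number (r 0.171 to 0.278 over 4 pairs). With other numbers r was at most 0.015. Those of CeHi and StHi did not correlate by number (-0.08 to 0.05 over 3 pairs). Residuals of CeCo and CeHi, which are different mice, reached r of 0.472, so that these values do not settle whether numbers pair samples. The numbers were not used as a block in the fit reported. Alternatives were the pseudocount, filter, scaling, moderation, sample weights, replicate block, groups fitted, edgeR and DESeq2 1.42.0 on recovered fragments, and each sample left out.

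The members and gene lists were chosen with earlier results of these data known. Named genes are the members, list genes that passed a line contrast or the interaction, the 2 genes per list with the smallest adjusted P-value for region in the control line, cluster neighbours, markers, and the 3 genes most like each member. Not every gene or marker that meets this rule is reported here. All 6 members matched the annotation, and all had a RefSeq start region. The marker Drd1 was not found under that symbol.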

Additional observations from a re-analysis of the deposited data

How the results depend on the processing

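The members called were 0 for the line contrasts and the interaction and 5 for region in the control line under every alternative that leaves all samples in or 1 out, except that quantile scaling exchanged Gabbr1 for Gabbr2 (-0.32, adjusted P-value 0.011) in the control line. For region in the Hi line 5 were called under quantile scaling, where Gabbr1 was lost, and 5 to 6 when 1 sample was left out. Among list genes, Ajap1 missed the threshold in the Ce when only the compared groups were fitted (adjusted P-value 0.059). Quantile scaling turned the mean line difference of Gabrb2 to 0.0073. Genes called in all moved beyond 1.5 times with sample quality weights (740 for line in the St and 182 for the interaction) and with DESeq2 (1389 for line in the Ce, 709 in the St and 277 for the interaction), against 903, 405 and 81 with limma. With 1 sample left out they numbered 613 to 953 for line in the Ce, 269 to 468 in the St, 997 to 1284 for their mean, 46 to 117 for the interaction, and 10992 to 11476 and 10067 to 10763 for region in the control and Hi lines. The causes were not tested.

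Several small line differences had no stable sign when 1 sample was left out. These were in the Ce Gabrb1 (-0.058 to 0.061) and Gabrb2 (-0.0084 to 0.10), in the St Gabrb1 (-0.21 to 0.046), Gabrg1 (-0.010 to 0.16), Gabrg3 (-0.30 to 0.084) and Gabbr1 (-0.015 to 0.030), for the mean Gabrb1 (-0.10 to 0.027), Gabrb2 (-0.034 to 0.028) and Gabrg3 (-0.073 to 0.20), and for the interaction Gabrb1 (-0.22 to 0.038). Likewise for the ratios, Gabrb1 over Gabrb2 ranged over -0.092 to 0.039 in the Ce and -0.19 to 0.11 in the St, Gabbr1 over Gabbr2 over -0.057 to 0.035 in the Ce, and Gabrg3 over Gabrg1 over -0.13 to 0.36 in the Ce.

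With the replicate block 0 members were called for the line contrasts and the interaction, 5 for region in the control line and 6 in the Hi line, and 73 genes in all for the interaction. A replicate block within line gave 54 genes for the interaction and the same member counts, and cannot give line contrasts. With numbers as pairs, the region differences of the ratios were 1.13, 0.48 and 3.78 in the control line, where the smallest exact permutation P-value is 0.125. The block changed no other call of a member. A fit of only the compared groups does not apply to the interaction or the mean line contrast.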
